A study of Mus musculus with 8 samples.

Results

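The genes described here are 8 members of the axis that runs between the let-7 microRNAs and their best known messenger targets in early development: Lin28a, Lin28b, Trim71, Hmga1, Hmga2, Igf2bp1, Igf2bp2 and Igf2bp3. They were chosen by symbol from the 36808 gene entries of a table of FPKM (fragments per unit of transcript length and of sequencing output, so that levels can be compared between genes). No cut on their values was used, but earlier results of these data were known when the members and the gene lists below were chosen. Each symbol matched 1 entry, and all 8 members were at or above 0.1 FPKM in every library.

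The table came from mRNA sequencing of mouse embryonic stem cells (ESCs) and of cells collected on day 5 of a directed differentiation towards spinal motor neurons, in wild-type lines and in lines mutant for Polycomb Repressive Complex 2 (PRC2), the enzyme complex that places the repressive histone mark H3K27me3. ESCs were kept in serum and LIF on irradiated mouse embryonic fibroblasts, which a short plating step was meant to remove, and differentiation used LIF withdrawal, retinoic acid and a Hedgehog agonist. E14 is wild type on a 129/Ola background, and was sequenced as ESCs and at day 5. Suz12GT, also 129/Ola, carries a gene trap that fuses SUZ12 to β-galactosidase and keeps lowered H3K27me3, and was analysed here at day 5 alone. Suz12delta (C57/BL6) makes a truncated SUZ12, and Eednull (BALB/cR1) carries a point mutation in Eed. Both have lost nearly all H3K27me3 and were sequenced as ESCs and at day 5. CJ7 (129/S) is a wild-type ESC library. Its label says that it was prepared and sequenced with a numbered library, and the column of Eednull ESCs is the one that bears that number, so these 2 libraries were taken as 1 batch. Each of the 8 conditions was 1 library, 4 of ESCs and 4 of day-5 cells, so no spread between replicates, no standard error and no p-value could be given, and each mutant is 1 line. For Suz12delta and Eednull, each on a strain other than that of E14, genotype, strain and line cannot be told apart. Suz12GT shares the strain of E14, so there genotype and line cannot be told apart.

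LIN28A and LIN28B are RNA-binding proteins that hold the let-7 precursor RNAs back from processing, so that little mature let-7 forms in pluripotent cells. As cells differentiate, let-7 normally accumulates and binds the 3′ untranslated regions (UTRs) of its targets, which include Lin28a, Lin28b and Trim71 themselves as well as the chromatin proteins HMGA1 and HMGA2 and the mRNA-binding IGF2BP proteins. Many genes of this axis are high in the embryo and low in adult tissue, and several return in tumours.

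Mature let-7 microRNAs share the seed at bases 2 to 8, which pairs with the target. In the RefSeq table (GRCm38.p6), 13 of 1738 mature entries held this seed, with 11 distinct sequences. The following 5 show how the family keeps the seed, in capitals, while the rest of the strand varies.
let-7a-5p: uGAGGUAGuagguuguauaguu
let-7b-5p: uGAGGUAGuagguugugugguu
let-7g-5p: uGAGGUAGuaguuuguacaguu
let-7i-5p: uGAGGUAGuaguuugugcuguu
miR-98-5p: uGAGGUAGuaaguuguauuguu

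The let-7 hairpin is where LIN28 acts, and GGAG is the short motif known for its contact with the precursor. Of the 11 let-7 and miR-98 hairpins in the same table, 8 held GGAG (hairpin strand only) downstream of the mature strand, as in the let-7g hairpin, where capitals mark it.
let-7g hairpin: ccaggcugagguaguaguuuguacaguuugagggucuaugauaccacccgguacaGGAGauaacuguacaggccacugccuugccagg

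All 8 members held at least 1 match to the let-7 seed, CTACCTC on the mRNA strand, in the longest 3′ UTR of their GENCODE vM1 annotation (NCBI build 37), with 19 matches in all. Of 19915 protein-coding genes with an annotated 3′ UTR, 8.80% held at least 1 match. The members are textbook let-7 targets, so this is a description of what the table's genes carry, and a match says nothing on use of the site in these cells. Lin28b, Hmga2 and Igf2bp1 each held 4 matches, a number that 9 genes in all reached or passed. Among genes whose 3′ UTR was 0.8 to 1.25 times as long, 0.141% held as many as Hmga2 (3014 bases), 0.282% as many as Lin28b (4445 bases) and 0.263% as many as Igf2bp1 (6337 bases). Lin28a (2775 bases) and Trim71 (1370 bases) held 2 matches each, as did 2.41% and 0.830% of genes with UTRs like theirs. Hmga1, Igf2bp2 and Igf2bp3 held 1 match each, as did 9.44%, 13.3% and 14.1% of genes with UTRs like theirs, so the count of matches sets these 3 apart little.

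**Figure D1:**
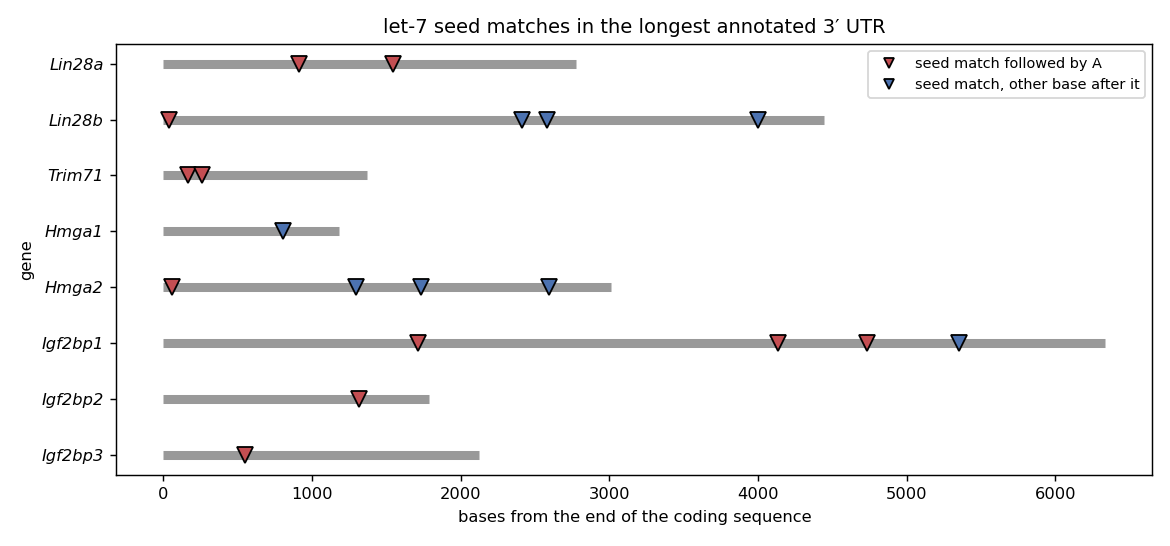
Position of let-7 seed matches along the longest annotated 3′ UTR of each gene (grey bars, drawn to scale in bases from the end of the coding sequence). Red triangles are matches followed by A and blue triangles are the others: Hmga2, Lin28b and Igf2bp1 carry 4 each, and Hmga1 is the only one of the 8 genes with no match followed by A.

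The matches are shown in windows of 30 bases on the mRNA strand with the seed match in capitals, for the 4 of Hmga2, the member that differed most between mutant and wild-type cells, and for Lin28a and Trim71, the members that differed most between E14 ESCs and E14 day-5 cells. The first Lin28b match is added because it lies near the start of the UTR, at base 36, as the first of Hmga2 does, at base 58. All lie on the minus strand of NCBI build 37, in 3′ UTR exons.
Hmga2 match 1, chr10:119801278-119801307: ggggcgccgacattcaatttCTACCTCagc
Hmga2 match 2, chr10:119800041-119800070: ataatccccactcctcaataCTACCTCtga
Hmga2 match 3, chr10:119799603-119799632: acttcctgatttgcaaggaaCTACCTCcac
Hmga2 match 4, chr10:119798745-119798774: tgtacaatcaaaacacactaCTACCTCtta
Lin28a match 1, chr4:133561102-133561131: ggagtgcacagcctgttgaaCTACCTCatt
Lin28a match 2, chr4:133560464-133560493: gctttgagatcgccacaaacCTACCTCact
Trim71 match 1, chr9:114421588-114421617: agtacaacattgcctaagtcCTACCTCagc
Trim71 match 2, chr9:114421492-114421521: tgtgaagtgataatttctatCTACCTCaac
Lin28b match 1, chr10:45100826-45100855: ccttcacccgggcgggaagtCTACCTCatg

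The libraries differed in ways that touch all genes. Summed FPKM ran from 389165 in Suz12delta ESCs to 797748 in E14 ESCs, and the 10 highest entries held between 7.69% and 35.2% of it. The number of reads could not be recovered from the table, so depth is unknown. Of the 2 mutated genes, Suz12 was at 6.21 FPKM in Suz12delta ESCs against 41.3 FPKM in E14 ESCs, but at day 5 it was at 11.6 FPKM in Suz12delta and 10.3 FPKM in Suz12GT against 16.2 FPKM in E14. Eed carries a point mutation in the Eednull line, so its level there (42.4 FPKM in ESCs) checks nothing. All 9 ESC markers were at least 2-fold lower at day 5 than in ESCs in E14, Suz12delta and Eednull alike, beside 25.8%, 12.6% and 24.8% of all genes. The 9 motor neuron markers found summed to 147 FPKM in E14 and 115 FPKM in Suz12GT at day 5, but to 19.8 FPKM in Suz12delta and 18.3 FPKM in Eednull. Of these 9, Tubb3 was listed at 0 in every library, and Pax6 alone stood at 9.35 FPKM in Eednull at day 5. Of the 8 compared, 3 (Pax6, Olig2 and Neurog2) were past 2-fold lower in Suz12GT than in E14, and 8 in Suz12delta and in Eednull. The shares of all genes lower were 4.40%, 9.52% and 11.3%. In the libraries labelled ESCs, 12 fibroblast markers summed to 156 FPKM in E14, 158 FPKM in CJ7, 399 FPKM in Eednull and 1090 FPKM in Suz12delta, and those cells had been grown on fibroblasts. In RNA of a mixed culture, fewer cells of a type and less RNA per cell cannot be told apart.

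Lin28a (chr4:133559245-133574756, minus strand) stood at 53.1 FPKM in E14 ESCs, 41.3 FPKM in CJ7 ESCs, 19.1 FPKM in Suz12delta ESCs and 51.1 FPKM in Eednull ESCs. At day 5 it stood at 16.6 FPKM in E14, 15.7 FPKM in Suz12GT, 12.1 FPKM in Suz12delta and 4.72 FPKM in Eednull. Every day-5 library was below every ESC library, with Suz12delta ESCs closest to the day-5 level and Eednull day-5 cells lowest of all. The log2 ratio of day 5 to ESC was −1.67 in E14, −0.65 in Suz12delta and −3.41 in Eednull. The Eednull pair crosses batches if CJ7 and Eednull ESCs were prepared apart from the rest, as read from the label.

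Lin28b (chr10:45096426-45206201, minus strand), the second LIN28 protein, stood at 12.2 FPKM in E14 ESCs, 11.1 FPKM in CJ7 ESCs, 2.50 FPKM in Suz12delta ESCs and 9.08 FPKM in Eednull ESCs. Day-5 levels were 17.8 FPKM in E14, 12.6 FPKM in Suz12GT, 9.85 FPKM in Suz12delta and 8.15 FPKM in Eednull. Unlike those of its paralogue, ESC and day-5 libraries overlapped: Lin28b was higher at day 5 than in ESCs in E14 and Suz12delta, slightly lower in Eednull, and lowest in Suz12delta ESCs. Lin28b was thus 3.93-fold higher at day 5 than in ESCs in Suz12delta, while its day-5 level there was below that of E14.

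Trim71 (chr9:114420393-114473487, minus strand), a TRIM-NHL protein that binds and represses mRNAs in stem cells, stood at 12.2 FPKM in E14 ESCs, 14 FPKM in CJ7 ESCs, 2.96 FPKM in Suz12delta ESCs and 16.3 FPKM in Eednull ESCs. By day 5 the level was 2.54 FPKM in E14, 2.06 FPKM in Suz12GT, 2.03 FPKM in Suz12delta and 1.31 FPKM in Eednull. The order resembled that of Lin28a: all day-5 libraries were below all ESC libraries, and Suz12delta ESCs were nearer to day 5 than to the other ESCs. Its log2 ratio of day 5 to ESC was −2.23 in E14, −0.52 in Suz12delta and −3.54 in Eednull.

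The low ESC values of Lin28a, Lin28b and Trim71 in Suz12delta were those of a library that stood apart in other genes. As deposited, the 9 ESC markers had a median log2 ratio of −1.56 there against E14, and 8 proliferation genes had a median of −1.0. Of the ESC markers 7 were at least 2-fold lower, beside 22.8% of all genes. All 12 fibroblast markers were at least 2-fold higher, beside 18.0% of all genes. These marker lists were not rescaled. The median of all genes was −0.28 as deposited and 0.70 at equal sums, so the size of these marker differences depends on the scaling. The part of these differences in the values of the 3 genes was not tested.

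**Figure D2:**
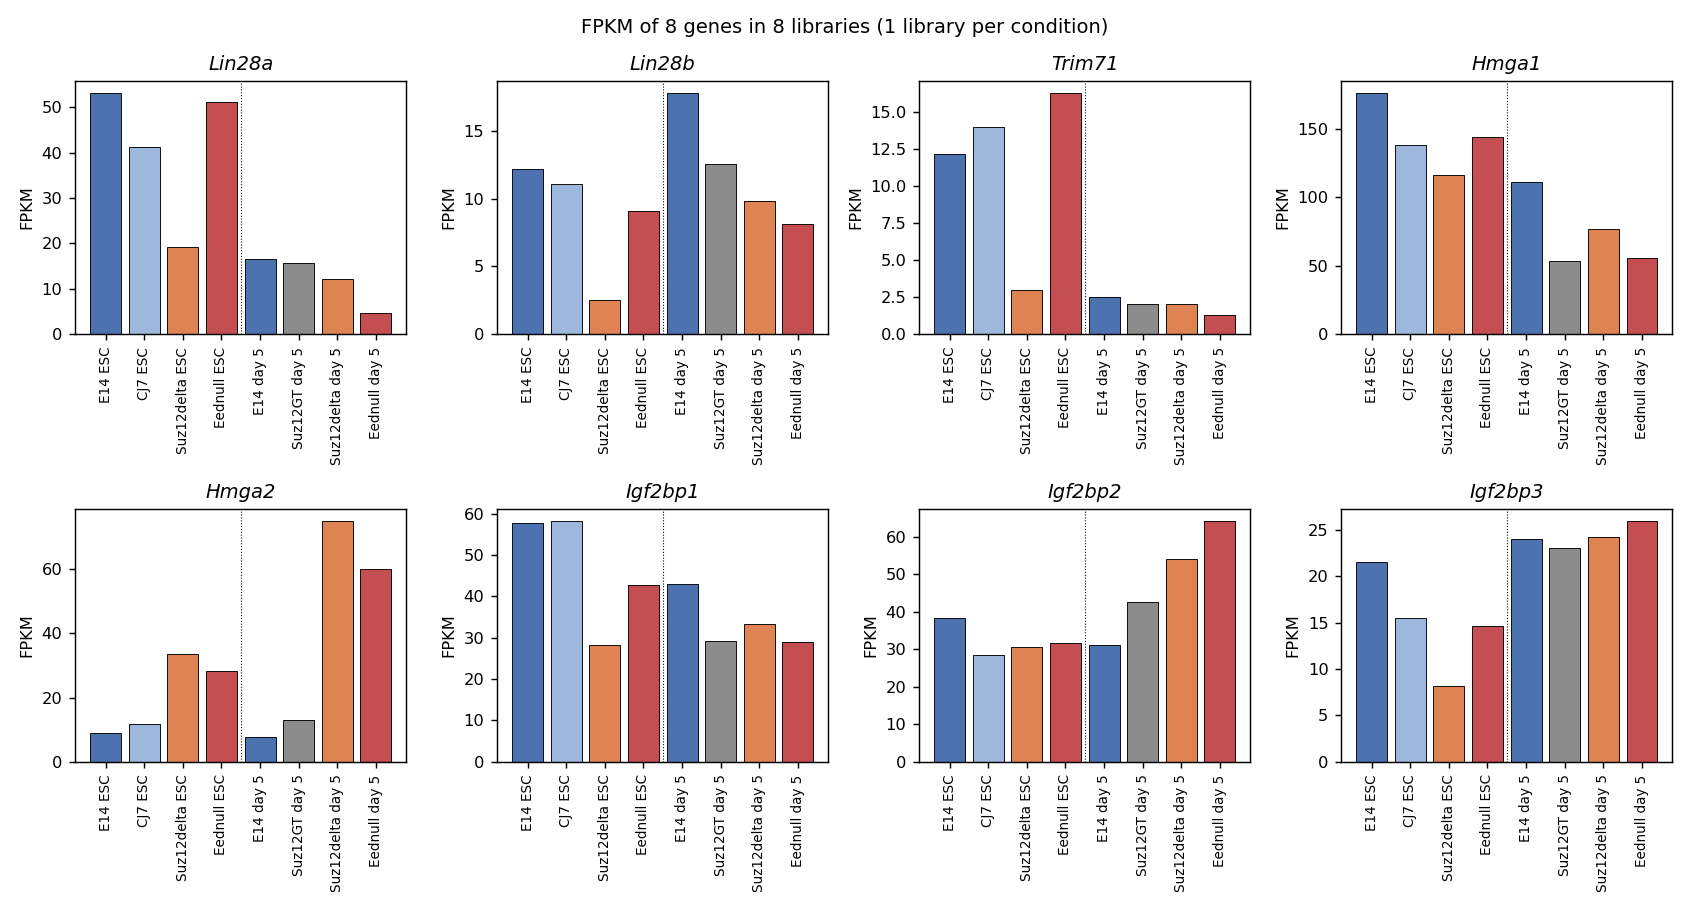
FPKM of the 8 genes in the 8 libraries, 1 bar per library and 1 library per condition, so no error is drawn. The dotted line separates ESCs (left) from day-5 cells (right): Lin28a and Trim71 are lower in all day-5 libraries, and Hmga2 is highest in Suz12delta and Eednull day-5 cells.

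Hmga1 (chr17:27693565-27700619, plus strand) codes for an AT-hook protein that bends DNA and is abundant in dividing embryonic cells. It stood at 176 FPKM in E14 ESCs, 138 FPKM in CJ7 ESCs, 116 FPKM in Suz12delta ESCs and 144 FPKM in Eednull ESCs, and at day 5 at 111 FPKM in E14, 53.1 FPKM in Suz12GT, 77.1 FPKM in Suz12delta and 55.3 FPKM in Eednull. It was the member with the highest level in 7 of the 8 libraries, the exception being Eednull at day 5, and its day-5 libraries were all below its ESC libraries as deposited, though E14 at day 5 was above E14 ESCs by log2 0.05 when libraries were scaled to the same sum. How many multiply mapped reads enter the Hmga1 values is not known, so they are uncertain, and AI413582 overlaps it on the other strand at 3.50 to 10.3 FPKM.

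Hmga2 (chr10:119798331-119913525, minus strand), the paralogue best known as a let-7 target and as a gene of mesenchymal and tumour cells, behaved differently. It stood at 9.05 FPKM in E14 ESCs, 11.8 FPKM in CJ7 ESCs, 33.4 FPKM in Suz12delta ESCs and 28.3 FPKM in Eednull ESCs. In day-5 cells it measured 7.70 FPKM in E14, 12.9 FPKM in Suz12GT, 75 FPKM in Suz12delta and 60.1 FPKM in Eednull. The Suz12delta and Eednull libraries were above all wild-type and Suz12GT libraries at both stages. At day 5 Hmga2 was 9.73-fold higher in Suz12delta than in E14 (log2 3.27), and 5.27% of the genes compared had a ratio as high. In Eednull it was 7.80-fold higher (log2 2.95), with 5.13% of genes as high. Over the pseudocounts and scalings tried, these log2 ratios ran from 3.12 to 3.35 and from 2.81 to 3.22. Suz12GT, the line that keeps lowered H3K27me3, was 1.67-fold above E14, short of 2-fold. In ESCs the log2 ratio to E14 was 1.87 in Suz12delta and 1.63 in Eednull, and against CJ7, taken as the same batch, Eednull ESCs were 2.39-fold higher (log2 1.25). The transcripts 1700006J14Rik and 9230105E05Rik lie opposite Hmga2 and reached at most 2.04 FPKM.

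Markers of fibroblasts and endoderm were also higher in the day-5 mutants, including Suz12GT, where Hmga2 was short of 2-fold. At day 5 all 12 fibroblast markers were at least 2-fold higher in Suz12GT, Suz12delta and Eednull than in E14, beside 16.8%, 26.6% and 21.6% of all genes. Their summed level was 3.10 FPKM in E14, 22.5 FPKM in Suz12GT, 126 FPKM in Suz12delta and 66.6 FPKM in Eednull. The defining fibroblast collagen genes were not at 0 in the mutants: Col1a1 was 25.4 FPKM in Suz12delta and 8.68 FPKM in Eednull at day 5, against 0.290 FPKM in E14. All 11 endoderm marker entries that could be compared were also at least 2-fold higher in each mutant at day 5, beside the same shares of all genes. They summed to 5.47 FPKM in E14 against 42.2 FPKM in Suz12GT and 63.6 FPKM in both Suz12delta and Eednull. Between ESCs and day 5 the fibroblast markers did not follow Hmga2: their median log2 ratio was −2.44 in Suz12delta, with 12 of 12 lower, and −1.31 in Eednull, with 8 of 12 lower, while Hmga2 was 2.24-fold and 2.12-fold higher. The endoderm markers had a median log2 ratio of 1.77 in Suz12delta, with 10 of 11 higher and 7 past 2-fold, and of −0.07 in Eednull, with 5 of 11 higher. All genes had medians of 0.43 in Suz12delta and −0.08 in Eednull over differentiation, and 26.9% were past 2-fold higher in Suz12delta. The part of these cell types in the level of Hmga2 was not tested.

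**Figure D3:**
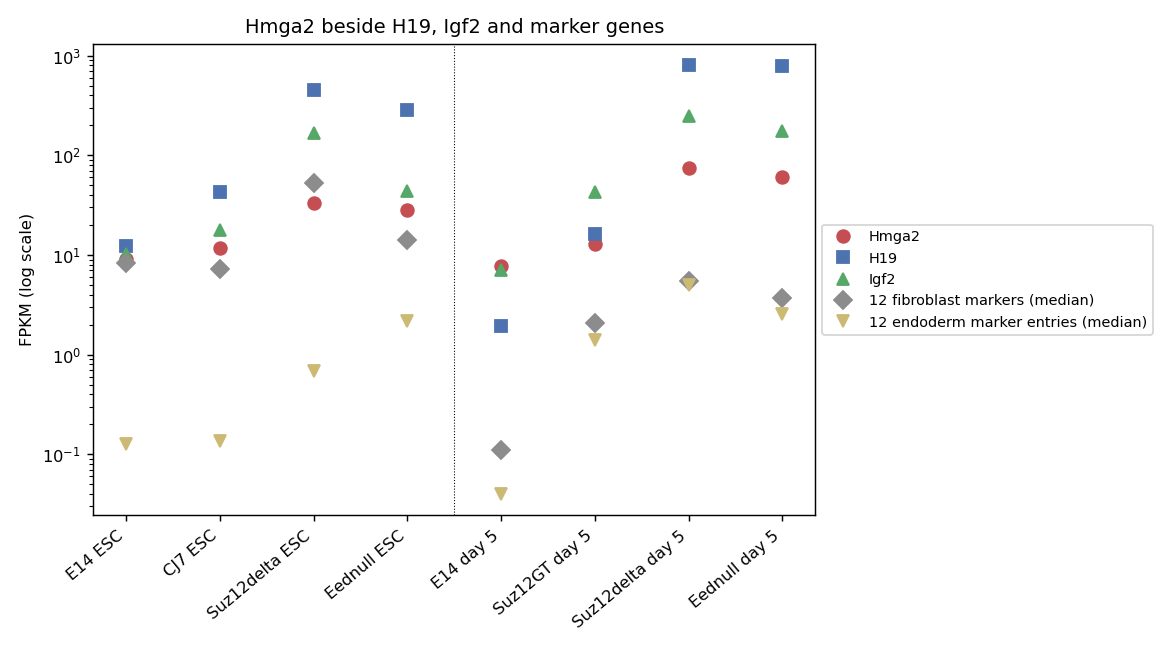
FPKM (log scale) of Hmga2, H19 and Igf2 and the median FPKM of 12 fibroblast and 12 endoderm marker entries in each of the 8 libraries, 1 point per library. Hmga2, H19 and Igf2 are highest in Suz12delta and Eednull day-5 cells, whereas the fibroblast marker median is highest in Suz12delta ESCs (53.2 FPKM).

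Igf2bp1 (chr11:95818477-95867254, minus strand), an mRNA-binding protein that stabilises transcripts in embryonic cells, stood at 57.7 FPKM in E14 ESCs, 58.3 FPKM in CJ7 ESCs, 28.3 FPKM in Suz12delta ESCs and 42.8 FPKM in Eednull ESCs. Day-5 libraries gave 42.9 FPKM in E14, 29.3 FPKM in Suz12GT, 33.4 FPKM in Suz12delta and 29.0 FPKM in Eednull. It varied least of the 8 members, 2.06-fold from lowest to highest library, and its ESC and day-5 libraries overlapped.

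Igf2bp2 (chr16:22059082-22163372, minus strand), whose gene is a known target of HMGA2 in other systems, stood at 38.3 FPKM in E14 ESCs, 28.4 FPKM in CJ7 ESCs, 30.6 FPKM in Suz12delta ESCs and 31.6 FPKM in Eednull ESCs. Its day-5 values were 31.1 FPKM in E14, 42.7 FPKM in Suz12GT, 54.2 FPKM in Suz12delta and 64.3 FPKM in Eednull. The 3 mutants were above every wild-type library at day 5, whereas the ESC libraries of the mutants lay between those of CJ7 and E14. Only Eednull passed 2-fold against E14 at day 5, at 2.07-fold.

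Igf2bp3 (chr6:49035220-49164953, minus strand), the most narrowly embryonic of the 3 proteins, stood at 21.6 FPKM in E14 ESCs, 15.5 FPKM in CJ7 ESCs, 8.21 FPKM in Suz12delta ESCs and 14.6 FPKM in Eednull ESCs. At day 5 values were 24.0 FPKM in E14, 23.1 FPKM in Suz12GT, 24.2 FPKM in Suz12delta and 26.0 FPKM in Eednull. All day-5 libraries lay above all ESC libraries, within a narrow band that did not separate mutant from wild type. The gene 2410003K15Rik overlaps it on the other strand at 9.50 to 16.6 FPKM, and the strandedness of the libraries was not given in the sources used here.

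Ratios between 2 members within a library do not depend on how libraries were scaled. The ratio of Lin28a to Lin28b was 3.71 to 7.61 in the 4 ESC libraries and 0.579 to 1.24 in the 4 day-5 libraries, so the libraries of the 2 stages did not overlap, mutants included. Hmga1 exceeded Hmga2 19.5-fold in E14 ESCs, 11.7-fold in CJ7 ESCs and 14.5-fold in E14 at day 5, but 3.46-fold and 5.07-fold in Suz12delta and Eednull ESCs. At day 5 that ratio was 4.11 in Suz12GT, 1.03 in Suz12delta and 0.920 in Eednull. The day-5 mutants thus differed from E14 in this ratio in the order Suz12GT, Suz12delta, Eednull. Suz12delta and Eednull were close, and with 1 library each that step was not tested. The ratio of Igf2bp1 to Igf2bp2 followed the same order at day 5. It was 1.38 in E14, 0.687 in Suz12GT, 0.617 in Suz12delta and 0.451 in Eednull. The other ratios computed did not follow it. Igf2bp1 to Igf2bp3 at day 5 was 1.79 in E14, 1.27 in Suz12GT, 1.38 in Suz12delta and 1.11 in Eednull. Suz12GT lay above E14 at day 5 in Lin28a to Trim71 (7.63 against 6.55) and in Lin28a to Lin28b (1.24 against 0.933). Over the 4 day-5 libraries the sum of the 3 Igf2bp genes ran from 95.1 to 119 FPKM, and the Igf2bp1 share of it from 24.3% to 43.8%. Over the 4 ESC libraries the sum ran from 67.1 to 118 FPKM and that share from 42.2% to 57.0%. Unlike the ratios, these sums depend on how libraries were scaled.

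**Figure D4:**
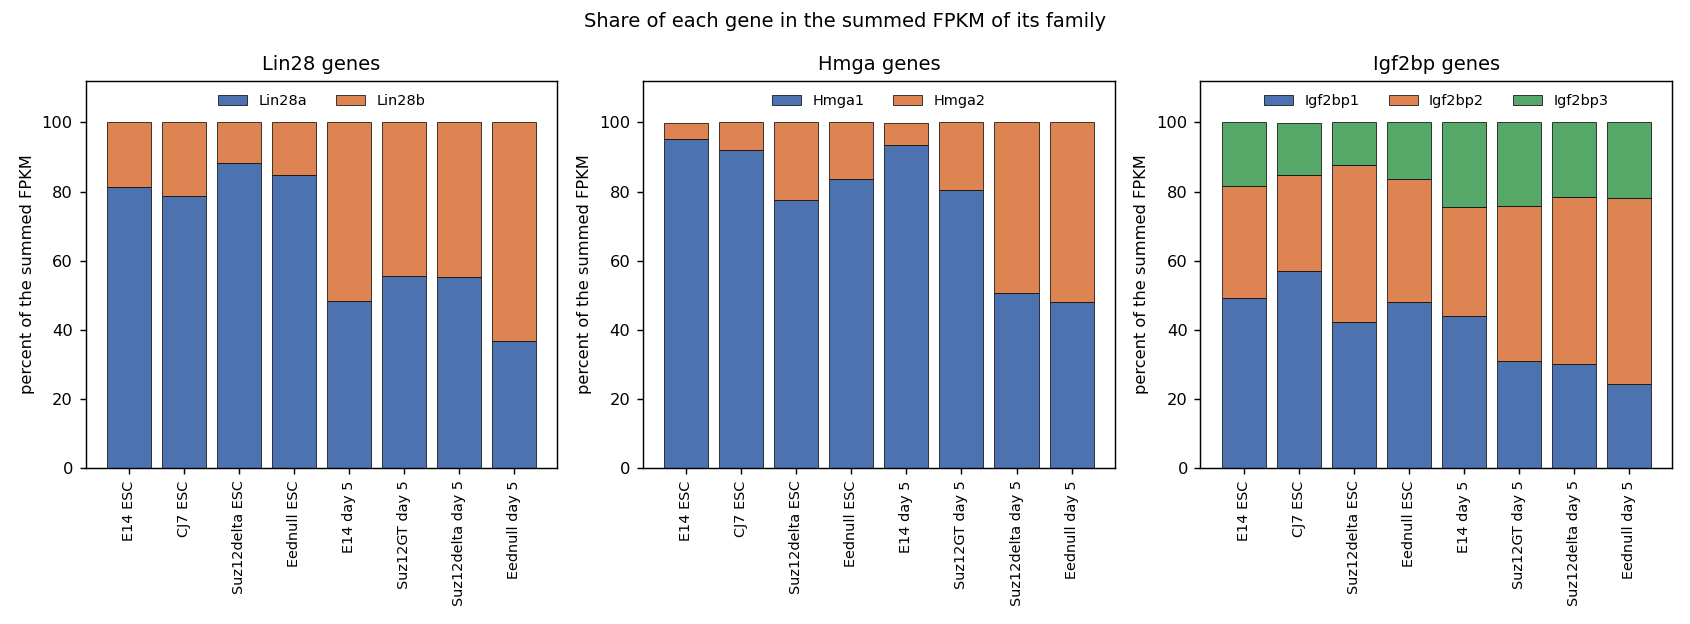
Percent of the summed FPKM of each family that each gene contributes in every library (stacked bars, 1 library each). Lin28b takes a larger share in all day-5 libraries than in all ESC libraries, and the Hmga2 share is 6.47% in E14 at day 5 but 49.3% in Suz12delta and 52.1% in Eednull.

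Across differentiation, members were set against all genes at or above 0.1 FPKM in at least 1 of the 2 libraries, and a gene counted as higher or lower past 2-fold on log2(FPKM + 0.1). In E14, 0 of 8 members were higher at day 5, against 18.3% of all genes, and 2 were lower, Lin28a and Trim71, against 25.8%. The median log2 ratio was −0.36 over the members and −0.20 over all genes, so the count is near the background. With libraries scaled to the same sum, 1 member was higher (Lin28b, log2 1.25) and 1 lower (Trim71), Lin28a being at −0.96, and the shares of all genes were 32.4% higher and 17.0% lower. In Suz12delta, 3 members were higher (Lin28b, Hmga2 and Igf2bp3), against 26.9% of all genes, and 0 were lower, against 12.6% (17.7% and 17.2% with the same 75th percentile, 15.9% and 18.8% with median-of-ratios scaling, 21.3% and 15.7% with the same sum). Lin28a (−1.03) was also lower past 2-fold with the same 75th percentile, and Lin28a (−1.13) and Hmga1 (−1.07) with median-of-ratios scaling. In Eednull, 2 members were higher (Hmga2 and Igf2bp2), against 18.4%, and 3 were lower (Lin28a, Trim71 and Hmga1), against 24.8% (29.5% and 19.6% with the same sum). Igf2bp2 lay at the threshold: it was under 2-fold with a pseudocount of 1, with the same 75th percentile and with median-of-ratios scaling (0.96). With the same sum, Hmga1 was under 2-fold (−0.89) and Igf2bp3 was past it (1.31). Hmga2 was the member that was past 2-fold higher in both mutants and not in E14, where its log2 ratio was −0.23. The Suz12delta value of Hmga2 (log2 1.16) was under 2-fold in each of the 3 other scalings, at 0.68 at the lowest.

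In ESCs, Suz12delta had 1 member higher than in E14 (Hmga2), against 18.0% of all genes, and 5 lower (Lin28a, Lin28b, Trim71, Igf2bp1 and Igf2bp3), against 22.8%. The member median was −1.21 and that of all genes −0.28. The shares of all genes higher and lower moved to 23.5% and 14% with the same 75th percentile, 24.8% and 12.9% with median-of-ratios scaling and 39.0% and 6.48% with the same sum. Igf2bp1 was under 2-fold with the same 75th percentile (−0.66), and Igf2bp1 (−0.59) and Igf2bp3 (−0.95) with median-of-ratios scaling. When libraries were scaled to the same sum, 2 members were past 2-fold, Hmga2 higher and Lin28b lower, and Trim71 was at −1.0. Against CJ7, Suz12delta ESCs had the same member higher, against 21.1% of all genes, and 4 lower (Lin28a, Lin28b, Trim71 and Igf2bp1), against 24.0%. Eednull ESCs had 1 member higher than E14 (Hmga2), against 22.4%, and 0 lower, against 11.9% (30.1% and 6.73% with the same sum). Set against CJ7, taken as the same batch, Eednull ESCs again had Hmga2 higher, against 20.5%, and 0 lower, against 10.7%. The 2 wild-type ESC lines differed by 2-fold in 0 members in either direction, against 15.7% of all genes higher and 14.7% lower in CJ7 (18.5% and 11.3% with median-of-ratios scaling), and their largest log2 difference among members was 0.48. That figure, from the values as deposited, holds strain, line and batch together and rests on 1 pair of wild-type ESC libraries. It gives no error for the strains of Suz12delta and Eednull or for day-5 cells. Over the pseudocounts and scalings tried, the Hmga2 log2 ratio of CJ7 to E14 ESCs ran from 0.35 to 0.62.

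At day 5, Suz12GT had 0 members higher than E14, against 16.8% of all genes, and 1 lower, Hmga1 (log2 −1.07), against 4.40%. Suz12delta had 1 member higher (Hmga2), against 26.6%, and 0 lower, against 9.52%. Eednull had 2 members higher (Hmga2 and Igf2bp2), against 21.6%, and 3 lower (Lin28a, Lin28b and Hmga1), against 11.3%. These comparisons share the E14 library. With libraries scaled to the same sum, Hmga1 in Suz12GT (−0.86) and Lin28b (−0.85) and Hmga1 (−0.73) in Eednull were under 2-fold. Hmga1 in Eednull was also just under it with a pseudocount of 1 and with median-of-ratios scaling (−0.99).

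**Figure D5:**
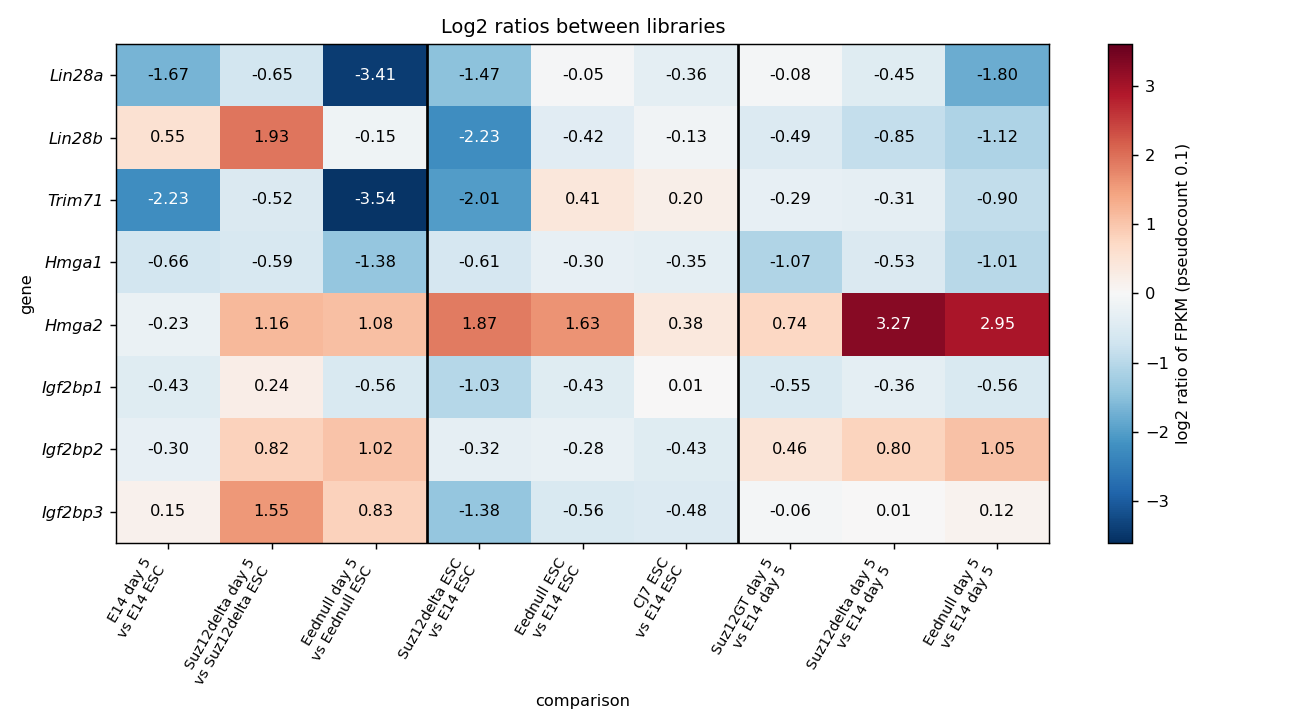
Log2 ratios of FPKM (pseudocount 0.1) of the 8 genes in 9 comparisons between single libraries: day 5 over ESC in 3 lines (left), ESC lines over E14 (middle) and day-5 mutants over E14 (right). Red is higher and blue lower in the first-named library. Hmga2 has the highest values among the day-5 mutants, and the CJ7 column shows how far 2 wild-type lines differ.

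Other genes of the let-7 pathway were taken from lists. Of 20 genes for processing and turnover of microRNA precursors, 4 were at least 2-fold higher at day 5 than in ESCs in E14, 10 in Suz12delta and 5 in Eednull, and 0 were lower in any of these lines. These counts stand beside 18.3%, 26.9% and 18.4% of all genes higher and 25.8%, 12.6% and 24.8% lower. The Suz12delta count of higher genes was 4 under each of the 3 other scalings, which were tried on the lists after seeing the data. With the same sum the E14 and Eednull counts were 8 each. The RNA-binding protein gene Msi1, which is known to work with LIN28, had the largest ratio in E14 and stood at 12.7 FPKM in E14 ESCs, 11.0 FPKM in CJ7, 4.30 FPKM in Suz12delta and 7.51 FPKM in Eednull. At day 5 it reached 64.2 FPKM in E14 and 62.0 FPKM in Suz12GT, but 18.5 FPKM in Suz12delta and 18.1 FPKM in Eednull. The Argonaute gene Eif2c1 showed a like split at day 5, with 58.1 and 47.5 FPKM in E14 and Suz12GT and 18.2 and 19.3 FPKM in Suz12delta and Eednull. These were the 2 of 20 genes of the list that were past 2-fold lower in Suz12delta and in Eednull than in E14 at day 5. The shares of all genes lower were 9.52% and 11.3%, so this count is near the background. Eif2c4 and Prkra were higher at day 5 in E14 by log2 1.51 and 1.04. Dis3l2, the nuclease known to destroy let-7 precursors that LIN28 has marked, stood at 3.64 to 6.08 FPKM in ESC libraries and 10.3 to 11.5 FPKM at day 5, without overlap. Zcchc11, the uridylase that marks them, was 27.1 FPKM in E14 ESCs and 39.7 FPKM at day 5, against 57.6 and 77.5 FPKM in Suz12delta and Eednull at day 5. Dis3l2 and Zcchc11 were named after their values were seen.

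The let-7 precursors could not be followed in these data, because small fragments were removed by size selection. Of 12 entries found, 11 were hairpin genes: Mirlet7d was listed at 9.39 FPKM in E14 ESCs and at 2.0 FPKM or less in the others, Mirlet7e at 2.73 FPKM or less, and 6 of the hairpin genes at 0 in every library. The remaining entry, 2610203C20Rik, held no let-7 gene within its annotated span and stood at 0.370 FPKM in E14 ESCs and 3.16 FPKM at day 5. Mature let-7 was not measured.

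Of 25 further known let-7 targets, 16 (64.0%) held a seed match in the longest 3′ UTR. At day 5 against ESCs, 5 were at least 2-fold higher and 5 lower of 24 compared in E14, 11 and 2 of 25 in Suz12delta, and 7 and 3 of 25 in Eednull, with medians of 0.04, 0.85 and 0.17 beside all-gene medians of −0.20, 0.43 and −0.08. The shares over all genes were 18.3% higher and 25.8% lower in E14, 26.9% and 12.6% in Suz12delta, and 18.4% and 24.8% in Eednull. With the same sum, 12 were higher and 3 lower of 25 in E14, and with the same 75th percentile 7 were higher in Suz12delta. Igdcc3, a cell surface protein of the immunoglobulin family, was 5.96 FPKM in E14 ESCs and 56.0 FPKM at day 5, and Tgfbr1 and Plagl2 were 9.51 and 53.5 FPKM and 3.67 and 18.4 FPKM. Thbs1, a secreted matrix protein, was 42.9 FPKM in E14 ESCs and 1.66 FPKM at day 5, and was 196 FPKM in Suz12delta ESCs, the library with the highest fibroblast markers. As deposited, Igdcc4 was the one target past 2-fold lower over differentiation in E14 (log2 −1.38) and past 2-fold higher in both Suz12delta (1.57) and Eednull (1.54). With the same sum, Igdcc4 in E14 was under 2-fold lower. At day 5 it stood at 7.98 and 7.66 FPKM in these mutants against 1.86 FPKM in E14.

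Of 6 mRNAs linked to TRIM71, 1 was past 2-fold higher and 3 lower at day 5 in E14, 2 and 2 in Suz12delta and 1 and 2 in Eednull, beside the shares of all genes (18.3% and 25.8%, 26.9% and 12.6%, 18.4% and 24.8%). Lefty1 and Egr1, both high in ESCs, were 193 and 60.2 FPKM in E14 ESCs and 0.152 and 0.734 FPKM at day 5. Hoxa5 was 0.596 FPKM and 27.1 FPKM. Cdkn1a, the cell cycle inhibitor that TRIM71 is known to hold down, was 43.1 FPKM in E14 ESCs and 17.6 FPKM at day 5, against 34.6, 56.3 and 33.1 FPKM in Suz12GT, Suz12delta and Eednull at day 5.

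RNAs known to be bound by IGF2BP proteins differed widely between mutant and wild-type libraries. Of 5 such RNAs, 4 were at least 2-fold higher in each mutant than in E14 at day 5, beside 16.8% (Suz12GT), 26.6% (Suz12delta) and 21.6% (Eednull) of all genes, and 4 in each mutant ESC library, beside 18.0% (Suz12delta) and 22.4% (Eednull). The 4 RNAs at each of these comparisons stayed 4 in number under the 3 other scalings. H19, an imprinted long noncoding RNA, stood at 12.2 FPKM in E14 ESCs, 42.3 FPKM in CJ7, 447 FPKM in Suz12delta and 286 FPKM in Eednull. Levels at day 5 were 1.92 FPKM in E14, 16.3 FPKM in Suz12GT, 796 FPKM in Suz12delta and 793 FPKM in Eednull. Its neighbour Igf2, the growth factor whose mRNA gave the IGF2BP proteins their name, was chosen after its values were seen, and stood at 10.3, 17.8, 166 and 43.9 FPKM in the same ESC order and 7.11, 43.0, 246 and 177 FPKM at day 5. Like Hmga2, both were higher in Suz12delta and Eednull at each stage than in any wild-type library, and at day 5 higher than in ESCs of the same mutant. Cd44 and Ptgs2 did not keep to that order: they were 101 and 37.3 FPKM in Suz12delta ESCs and 4.41 and 0.909 FPKM at day 5 in that line. Actb was within 2-fold in every comparison between mutant and E14. The fibroblast and endoderm marker values given above stand beside these RNAs too, and the part of those cells was not tested.

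Of 8 HMG-box, TRIM and other related genes, 2 were past 2-fold higher at day 5 in E14 and 0 were lower. The shares of all genes were 18.3% and 25.8%. The 2 were Hmgb3 (15.0 and 77.9 FPKM) and Trim32 (5.52 and 15.2 FPKM, listed at 0 in CJ7). Trim3 stood at 10.6 and 17.5 FPKM, and Trim2 at 7.48 and 11.8 FPKM. With the same sum, 5 were higher in E14, beside 32.4% of all genes. Over differentiation 4 were higher in Suz12delta and 3 in Eednull, beside 26.9% and 18.4% of all genes. In these lines 0 were lower, beside 12.6% and 24.8%. At day 5 against E14, 1 of the 8 was past 2-fold in Suz12GT, Trim2 at 25.1 FPKM, beside 16.8% of all genes higher and 4.40% lower. In Suz12delta 0 were past 2-fold, beside 26.6% higher and 9.52% lower, and in Eednull 0, beside 21.6% and 11.3%.

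Members were also compared by the shape of their profile, as the root mean square difference of centred log2 values over the 8 libraries, where a small value means a like profile. The closest pairs were Hmga1 and Igf2bp1 (0.38), Igf2bp2 and Igf2bp3 (0.41), Lin28b and Igf2bp3 (0.47) and Lin28a and Trim71 (0.49). Hmga2 lay farthest from Trim71 (2.12) and Lin28a (2.01). Among 18538 genes at 1 FPKM or more in some library, the 3 nearest to Hmga2 were Gramd1c (0.25), Gcom1 (0.29) and Folr4 (0.32), all of which stayed at or below 1.73 FPKM. Nearest to Lin28a were Kcnn2 (0.28), Pim1 (0.33) and Itpk1 (0.34), and to Lin28b Ccdc85c, Msi2 and Gm11336 (0.18 each). Nearest to Trim71 were mmu-mir-2144 (0.27), Fgf15 (0.28) and Prr19 (0.31), and to Hmga1 Cars (0.13). Igf2bp1 had Adat2 (0.10), Fastkd1 (0.11) and Aasdhppt (0.12), Igf2bp2 had Slc35f5, Arfgef1 (0.12 each) and Sik2 (0.13), and Igf2bp3 had Dnajc27 (0.11), Rcbtb1 and Mtrf1l (0.12 each). The 8 points of a profile share any difference in scaling between libraries, and small differences are easier to reach for genes that vary little.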

How the data were processed

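RNA was isolated with Trizol, and libraries were sequenced on Illumina instruments. The authors aligned reads with TopHat 1.3.2 and Bowtie 0.12.7 to the mm9 (NCBI build 37) mouse genome and computed FPKM with Cufflinks 1.2.1 and Cuffdiff, with correction for sequence bias and multiply mapped reads. The deposited FPKM values were used unscaled. FPKM are not counts and depth could not be recovered, so no count model, interval or p-value was computed. With 1 library per condition, a gene was called past 2-fold on log2(FPKM + 0.1) among genes at or above 0.1 FPKM in 1 or both libraries. Members were chosen by symbol. In each list, up to 4 genes at 1 FPKM or more with the largest E14 ratio were named, plus genes past 2-fold the other way in both Suz12delta and Eednull, and for each member the 3 nearest profiles. Other names are marked. The members and lists were chosen with earlier results of these data known. Positions and 3′ UTRs came from GENCODE vM1 on NCBI build 37, and microRNAs from RefSeq (GRCm38.p6). Alternatives were other pseudocounts, minimum levels and scalings, and CJ7 as the wild-type ESC. Python 3.11.15, NumPy 2.4.6, pandas 2.3.3 and Matplotlib 3.10.9 were used, and the script was tested on simulated data. The 28 symbols of the precursor-processing list include older and newer names of the same genes, of which 20 matched. Of the other lists 25 of 26 targets, 6 of 6 TRIM71-linked mRNAs, 5 of 5 IGF2BP-bound RNAs other than Hmga2, 12 of 15 let-7 transcripts and 8 of 8 relatives matched. One further item is not reported here. The mesoderm list (8 genes) summed to 0.571 FPKM in E14 at day 5 and 4.05 to 11.4 FPKM in the mutants. Meox1 made up most of each sum, at 0.435 FPKM in E14, 3.74 FPKM in Suz12GT, 7.86 FPKM in Suz12delta and 8.51 FPKM in Eednull. T was at 0.104, 0.0153, 0.944 and 0.671 FPKM in the same order.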

Additional observations from a re-analysis of the deposited data

Results flagged for a closer look

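The change from ESC to day 5 went opposite ways in E14 and in both Suz12delta and Eednull for 2 members. For Hmga2, the log2 ratio of day 5 to ESC exceeded that of E14 by 1.39 in Suz12delta and by 1.31 in Eednull. For Igf2bp2, it exceeded that of E14 by 1.12 in Suz12delta and by 1.32 in Eednull. With 1 library per condition the difference was not tested, the E14 pair is shared, and the Eednull pair spans 2 batches as read from the label of CJ7. With libraries scaled to the same sum, the E14 ratios of both genes were above 0 (0.47 for Hmga2 and 0.41 for Igf2bp2), so that the opposite directions depend on the scaling.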

How the results depend on the processing

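Scaling libraries to the same sum changed 3 counts of members past 2-fold by over 1.5 times: 2 in place of 6 for Suz12delta against E14 ESCs, 0 in place of 1 for Suz12GT against E14 at day 5, and 3 in place of 5 for Eednull against E14 at day 5. Igf2bp1 in Suz12delta against E14 ESCs changed sign there, from −1.03 to 0.01. Of 520 member ratios recomputed, 483 kept their side of 2-fold and shifted by less than 1.5-fold, and besides that one 36 did not, 21 of them under that scaling. The sign changed in 30 of the 520, 16 of them under that scaling, and Igf2bp1 was the one of these that was past 2-fold as deposited. The pseudocount of 0.01, the minimum of 1 FPKM and no minimum moved 0 of 72 ratios each. The median log2 ratio of all genes in Suz12delta against E14 ESCs was −0.28 as deposited and 0.70 at equal sums. No paired analysis was possible because each condition was 1 library and the labels give no replicate numbers, and no library could be left out of a group. Depth is unknown.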
